A study of Drosophila melanogaster with 150 samples.

Results

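The comparison concerns 74 of 150 Affymetrix arrays of adult male Drosophila melanogaster on which the gene CG13884 had a high signal, set against the other 76 arrays. An array was placed on the high side where the log2 signal of the CG13884 probe set exceeded 4.66, and on the low side otherwise. The sides were chosen by the measured values of CG13884, which are therefore given as a description without a test. The study reared 75 recombinant inbred lines (the roo lines), 1 array per line being labelled lead and 1 labelled control. Lead food held 250 uM lead acetate and control food 250 uM sodium acetate. On either food, 20 males and 20 females shared a vial (10 ml of food, 25 degrees C) for 3 days, and 65 male offspring aged 5 to 10 days were pooled. Each array is thus a pool of whole males of a vial, and a line has a single array per food. In such pools, fewer cells of a type and less RNA per cell cannot be told apart.

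A recombinant inbred line is made by crossing founder strains and inbreeding the offspring until each chromosome is a fixed mosaic of founder segments. Genes close together on a chromosome tend to be inherited from the same founder, whereas genes on different chromosomes assort independently. Lines of this kind are used to map expression quantitative trait loci, which are genome positions where a difference in sequence goes with a difference in transcript level. Where such a position lies at the gene itself, transcript levels in a panel of lines often fall into separate classes. Founder genotypes of the lines were not used here. No sequence is printed, since none was given for these probe sets. Positions are given as gene order in a RefSeq gene table, and no source used here gives the genome build behind the array.

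The arrays showed the markers of adult males on both sides. Acp36DE, a seminal fluid protein of the accessory gland, had a mean log2 signal of 12.70 ± 0.32 on high arrays (SD, n = 74) and 12.77 ± 0.29 on low arrays (SD, n = 76). Mst87F, a sperm tail protein made in the testis, had means of 11.58 on high and 11.63 on low arrays. The mean of 16 yolk and eggshell genes, which belong to females, reached 7.60 on the control array of line 38, a high array, and 9.17 on the lead array of line 213, a low array. Results were also computed without these 2 arrays. The lead arrays of lines 34 and 14, both high arrays, had 6.08 and 5.73 and were kept. Signal of single genes of this kind was not confined to the arrays named here. The yolk protein gene Yp1 had 5.19 ± 2.55 on high and 5.04 ± 2.54 on low arrays (SD). It fell into 2 classes of at least 20 arrays each, with 82.3% of its variance between them. The side means of this list were 3.99 on high and 3.92 on low arrays. Overall signal was close on both sides, with an array median of 5.39 ± 0.035 on high and 5.38 ± 0.043 on low arrays (SD). RNA integrity, taken as the Act5C signal of the 3′ probe set minus that of the 5′ one, averaged 2.71 ± 0.58 on high and 2.75 ± 0.59 on low arrays.

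CG13884 fell into 2 levels with a sparse zone between them. Its signal had a lowest value of 4.81, a median of 6.32 and a highest value of 7.40 on high arrays, against 2.62, 3.00 and 4.50 on low arrays. The mean was 6.21 ± 0.58 on high arrays (SD, n = 74) and 3.03 ± 0.27 on low arrays (SD, n = 76). High arrays thus varied more among themselves than low arrays. The low arrays stood far under their array median of 5.38, and whether a floor of the signal narrowed their spread was not tested. The widest gap in the values did not lie at the threshold but below it, between 3.48 and 4.25. The arrays just outside the high side were the control array of line 31 at 4.50 and the lead array of line 88 at 4.25, and the array just inside was at 4.81.

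The first question was whether the side of an array followed its labelled food. Of 75 lead arrays 40 were high, and of 75 control arrays 34 were high. The odds ratio was 1.38 with a 95% interval from 0.690 to 2.75, and a two-sided Fisher's exact test gave p = 0.414, or 0.621 after Benjamini-Hochberg adjustment over 3 tests of the side. No difference between the foods was therefore detected, although the interval leaves room for a shift either way.

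The second question was whether the arrays labelled as the same line shared a side. Both arrays were high in 16 lines and both were low in 17 lines, so 33 of 75 lines had the same side. In 42 lines the sides differed, 24 with the lead array high and the control array low and 18 the other way round. The odds ratio for sharing a side was 0.634 (95% interval 0.228 to 1.73, two-sided Fisher's exact test, p = 0.359, adjusted p = 0.621). A shared level of CG13884 within the labelled lines was thus not detected. Over all probe sets, 1 of 75 control arrays was most like the lead array of its own labelled line. Whether the line and food labels match the arrays was not tested, and every value below by line, with line as a block or by food rests on the labels as given. Among lines numbered 1 to 100 there were 60 high and 54 low arrays, and among lines numbered above 200 there were 14 high and 22 low arrays.

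**Figure D1:**
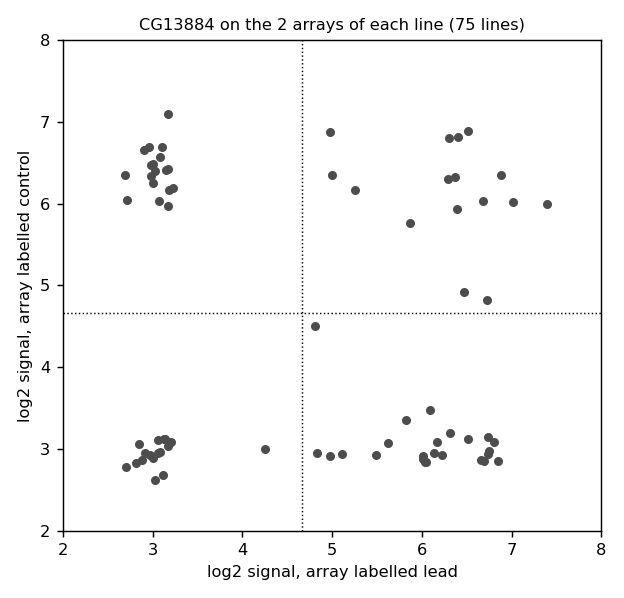
CG13884 log2 signal on the array labelled lead (x axis) against the array labelled control (y axis), 1 point for each of 75 lines. Dotted lines mark the threshold of 4.66. Points fill all 4 quadrants, with 16 lines high on both arrays, 17 low on both, and 42 in which the arrays differ.

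The third test set the side against that of MtnB, a metallothionein that binds heavy metals and is also split into 2 levels in these arrays. MtnB exceeded a log2 signal of 10 on 39 of 74 high arrays and on 37 of 76 low arrays (odds ratio 1.17, 95% interval 0.589 to 2.34, two-sided Fisher's exact test, p = 0.629, adjusted p = 0.629). The MtnB side was kept as a covariate in every comparison below unless stated.

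High arrays were then compared with low arrays over 18768 other probe sets in limma, on the deposited log2 values and with Benjamini-Hochberg adjustment over all of them. A probe set is called where its adjusted p is under 0.05, and a difference is always high minus low on the log2 scale. In all, 142 probe sets were called, which is 0.757% of those tested. Of these, 84 (0.448%) were higher and 58 (0.309%) were lower on high arrays. The calls lay mostly on the left arm of chromosome 3, 3L, where CG13884 is gene 69 of 3482 in the gene order used. There 104 of 2664 probe sets were called, or 3.90%, with 56 higher and 48 lower. On all other arms together 24 of 10878 were called, or 0.221%, and 14 of 5226 probe sets without a placed gene. With line as a fixed block, where the lines whose arrays differ in side carry the comparison, 73 probe sets were called, 50 of them on 3L and 15 on other arms. There were 0 probe sets whose groups did not overlap at all.

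The 2 genes named with CG13884 in the choice of this split had the smallest adjusted p of all probe sets tested. CG13876, 39 genes before CG13884 in the gene order, had a lowest, median and highest log2 signal of 3.63, 4.89 and 5.36 on high arrays, against 3.23, 3.65 and 4.26 on low arrays. CG13895, 43 genes after it, had 4.71, 5.46 and 6.09 on high arrays, against 4.19, 4.56 and 5.04 on low arrays. Most high arrays were above most low arrays, and the groups overlapped, the lowest high array for CG13876 lying just under the low median. The difference was 1.11 for CG13876 (SE 0.0492, limma adjusted p = 7.64e-46) and 0.88 for CG13895 (SE 0.0398, limma adjusted p = 4.51e-45). Both had been chosen with these arrays known, so their differences are no independent evidence of a link with CG13884.

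The gene hng3, 48 genes after CG13884, went the opposite way by a similar amount. Its lowest, median and highest values were 4.54, 5.50 and 6.54 on high arrays, against 5.00, 6.61 and 7.27 on low arrays. High arrays were lower in the main, with overlap between the groups. The difference was -1.02 (SE 0.0662, limma adjusted p = 6.32e-29).

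Hipk, a protein kinase that acts on transcriptional regulators and promotes growth, lies 15 genes after CG13884. Its lowest, median and highest signals were 8.91, 9.60 and 10.28 on high arrays, against 7.96, 8.86 and 9.33 on low arrays, a difference of 0.69 (SE 0.0465, limma adjusted p = 2.03e-27). CG3386, 35 genes after CG13884, had values of 5.15, 5.77 and 6.17 on high arrays, against 4.89, 5.32 and 5.60 on low arrays. Its difference was 0.44 (SE 0.0317, limma adjusted p = 1.59e-25). In both genes most high arrays were above most low arrays, and the ranges overlapped.

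**Figure D2:**
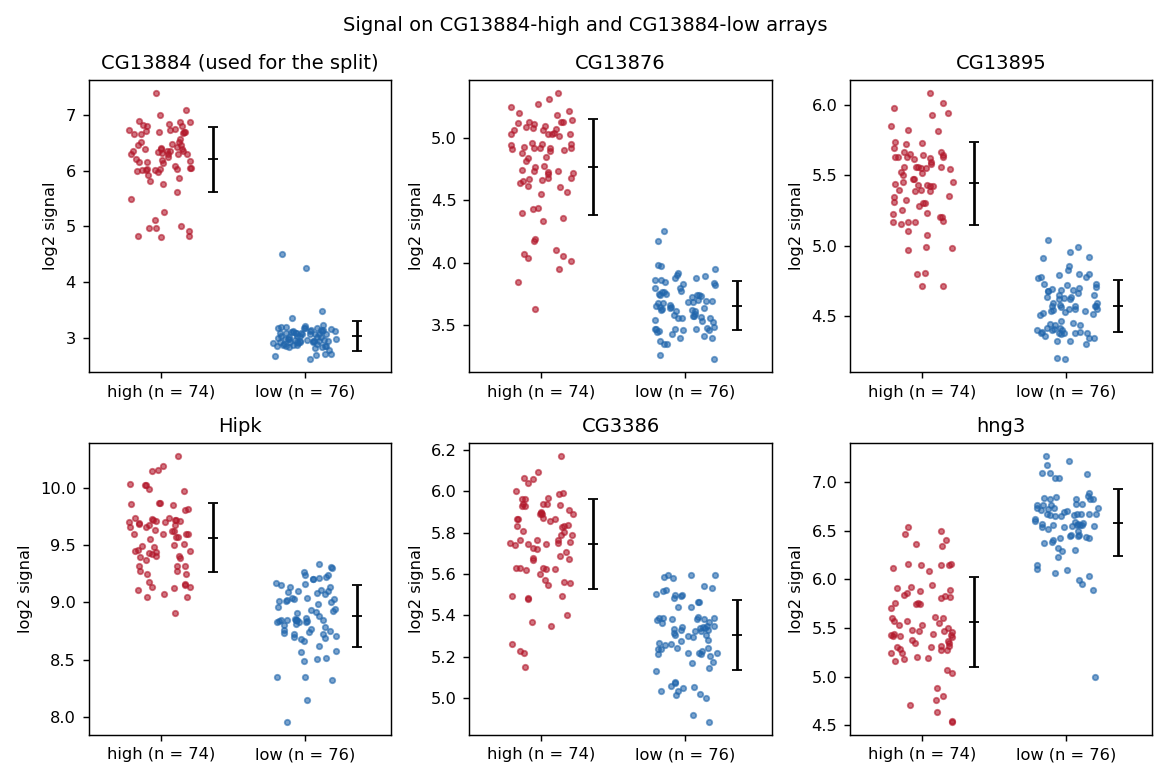
Log2 signal of CG13884 and of 5 other genes of 3L on each high array (left, n = 74) and each low array (right, n = 76), with the mean and SD in black beside the points. CG13884 chose the sides. CG13876, CG13895, Hipk and CG3386 were higher and hng3 was lower on high arrays, and each of these 5 genes has overlapping groups.

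Among the other called genes nearest in rank, several have known roles. Higher on high arrays were CkIIalpha-i3, which binds the catalytic subunit of casein kinase II (0.44), BORCS6, a subunit of a complex that positions lysosomes (0.23), MED30, a subunit of the Mediator of transcription (0.28), Rabex-5, an activator of the endosomal GTPase Rab5 (0.28), and msd5, a subunit of the augmin complex of the mitotic spindle (0.42). CG9192 (0.56), ddbt (0.45) and CG34057 (0.39) were also higher. Lower on high arrays were Pdk1, the kinase that activates Akt downstream of the insulin receptor (-0.46), Ptp61F, a tyrosine phosphatase that restrains JAK/STAT and insulin signalling (-0.20), and Rev1, a DNA polymerase used in bypass of damaged bases (-0.24). JMJD5, a protein of the jumonji family (-0.19), CG13926 (-0.34), CG13893 (-0.27), CG8960 (-0.70), Nt5a (-0.22), CG14995 (-0.75), CG1271 (-0.31) and Reg-2 (-0.36) were lower too. All 24 genes named by this rule, which takes the 12 calls of smallest p in each direction among probe sets with a single gene symbol, lie on 3L. Probe sets without a symbol were passed over, among them an unplaced one with the fifth smallest p of all (0.42, limma adjusted p = 6.63e-26). Its lowest, median and highest signals were 2.63, 3.12 and 3.83 on high arrays, against 2.46, 2.72 and 3.05 on low arrays, and it was singled out after its values were seen. In the 18 lines numbered above 200 alone, 16 of them were no longer called, while CG13876, CG13895, Hipk, CG3386, CkIIalpha-i3, ddbt, hng3 and Pdk1 were. On lead arrays alone CG8960, Nt5a, msd5, JMJD5 and Ptp61F were no longer called, and on control arrays alone Reg-2 was not. Ptp61F has a second probe set, at -0.13, that missed the threshold (limma adjusted p = 0.0906).

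The genes immediately around CG13884 were not among the calls. Within 10 genes on either side, 15 probe sets of 13 genes were measured and 0 were called, at limma's adjusted threshold, against 0.757% of all probe sets. At that share 0 calls among 15 probe sets is unremarkable, so the count is no result about these genes. The smallest adjusted p belonged to mth, which encodes the G protein-coupled receptor methuselah, known for its effect on lifespan. Its lowest, median and highest values were 4.57, 5.21 and 6.20 on high arrays, against 4.57, 5.10 and 5.99 on low arrays, with a difference of 0.17 (95% interval 0.074 to 0.259, limma adjusted p = 0.0607). The difference of klar, which anchors motors to nuclei and lipid droplets, was -0.13 (95% interval -0.204 to -0.050, limma adjusted p = 0.108). Some alternatives ended this absence of calls. With array weights mth and klar were called (limma adjusted p = 0.0159 and 0.00964), and with the first 2 principal components as covariates mthl10, CG1233 and Ptpmeg were (limma adjusted p = 0.00144, 0.00547 and 0.00173). The related receptors mthl9 and mthl10 had differences of 0.09 and, on 2 probe sets, -0.18 and -0.04. Within 20 genes, 4 of 29 probe sets were called, or 13.8%, namely Hipk, ddbt and BORCS6, which were higher, and CG34269, which was lower (-0.23) and was named after its values were seen. CG13876 and CG13895 lie outside that window in this gene order.

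The share of probe sets called was lower at larger distances along 3L, though not at every step. It was 35.5% (11 of 31) from 0 to 50 genes after CG13884, 22.6% from 51 to 100, 26.2% from 101 to 200 and 17.5% (31 of 177) from 201 to 400. It was 8.97% from 401 to 600, 5.78% from 601 to 800 and 1.40% (5 of 358) from 801 to 1200. Only 68 genes precede CG13884 on the arm, and 5 of 51 probe sets there were called, or 9.80%. From 1201 to 1600 genes 0 of 281 were called, from 1601 to 2400 genes 4 of 616, or 0.649%, and from 2401 to 3411 genes 0 of 725. These shares are under the 0.757% of all probe sets, which includes the calls on 3L itself. On other arms the share was 0.221%, so the 0.649% is above that of the other arms. The 4 calls lie between 2221 and 2368 genes away. They are 2 probe sets of pHCl-1, a pH-sensitive chloride channel (0.16 and 0.16), CG13056 (0.37), and aos, which encodes Argos, the secreted inhibitor of the EGF receptor (0.21). These genes were named after their values were seen.

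**Figure D3:**
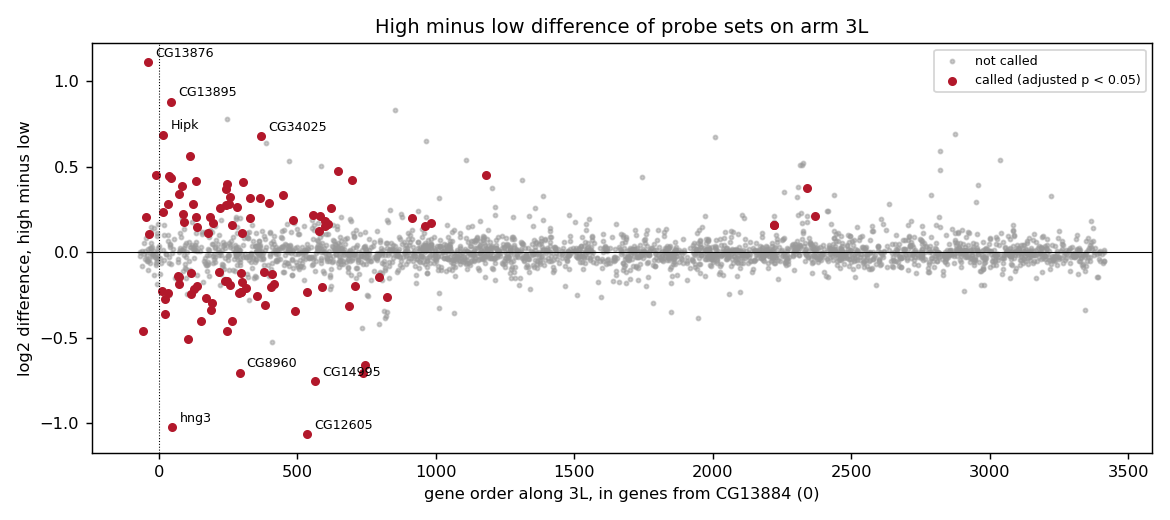
High minus low log2 difference of every placed probe set on 3L against its gene order from CG13884, with called probe sets in red. Called differences of either sign are most frequent up to 400 genes after CG13884. The absence of calls within 10 genes of it is no result about those genes, since few probe sets were measured there. They thin out beyond 800, with 4 further calls between 2221 and 2368 genes away.

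**Figure D4:**
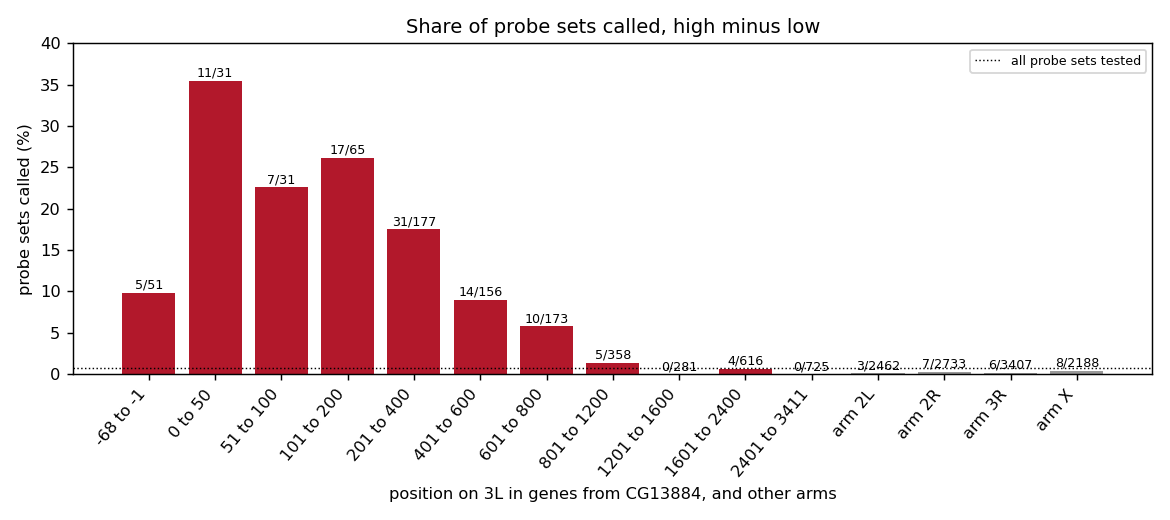
Percentage of probe sets called in bins of gene order along 3L (red) and on 4 other arms (grey), with counts above the bars and the 0.757% of all probe sets as a dotted line. The share is highest, at 35.5%, from 0 to 50 genes after CG13884 and is 0.649% from 1601 to 2400 genes.

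Large differences also occurred farther along 3L. CG12605, 536 genes away, had a lowest, median and highest signal of 3.55, 4.26 and 7.14 on high arrays, against 3.31, 6.16 and 7.26 on low arrays. CG34025, 368 genes away, had 2.35, 3.87 and 5.18 on high arrays, against 2.25, 2.64 and 4.88 on low arrays. Both sides of these genes spanned nearly the same range and differed in how many arrays stood at either level. The differences were -1.06 for CG12605 (limma adjusted p = 3.52e-06) and 0.68 for CG34025 (limma adjusted p = 6.70e-06). These 2 genes were named after their values were seen.

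A further description took all probe sets whose 150 values split into 2 classes of at least 20 arrays with at least 80% of the variance between the classes. There were 27 such probe sets on 3L, 77 on other arms and 24 without a placed gene. For each, the arrays on the class that matched the CG13884 side were counted in the better of the 2 directions, so the count cannot be under 75 of 150. It was 143 for CG13895 and 140 for CG13876, 114 for CG8960 at 291 genes, 111 each for CG11537 at 398 genes and CG14995 at 562 genes, and 110 for CG12605. On other arms it had a median of 80 and a highest value of 90. Among the 24 probe sets without a placed gene it had a median of 81 and a highest value of 96. CG13895 and CG13876 were chosen with these arrays known, so their counts are set apart. The other 3L genes had 107 to 114 arrays from 291 to 562 genes, without a steady decline. An exception was CG43074 at 483 genes with 77 arrays. From 735 to 1067 genes the counts were 90 to 97, and beyond 1200 genes they were within the range of other arms.

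**Figure D5:**
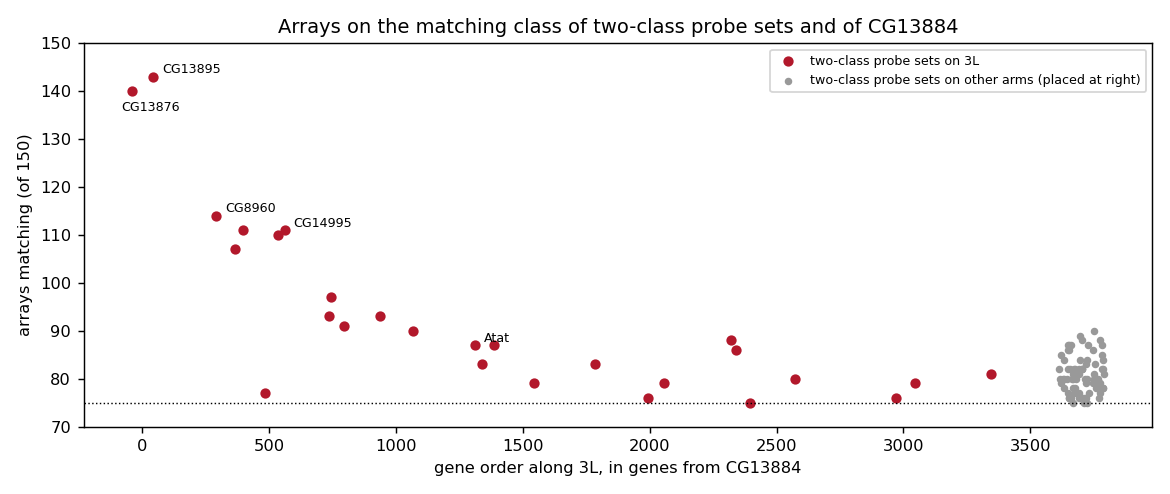
Number of arrays, of 150, on the matching class of CG13884 and of each probe set with 2 classes, against gene order along 3L (red) and for other arms (grey, placed at the right). The dotted line is the least possible count of 75. Probe sets without a placed gene are not drawn. CG13895 and CG13876 match on 143 and 140 arrays, and probe sets on other arms reach at most 90.

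As a measure of likeness over the 150 arrays, which stand at 2 levels, Pearson's r with CG13884 was highest, among probe sets with a gene symbol, for CG13876 (0.915), CG13895 (0.896), CG3386 (0.801), Hipk (0.785) and CkIIalpha-i3 (0.688). It was lowest for hng3 (-0.807), Pdk1 (-0.681), CG13893 (-0.578), CG13926 (-0.557) and CG8960 (-0.540). These values are mainly set by the distance between the sides and come from the same arrays as the differences above.

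Arrays near the threshold of CG13884 had medians between those of the sides at other genes of 3L, though not each array stood between. Within 0.9 of the threshold lay 12 arrays, 10 of them high and 2 low. These arrays were picked by their CG13884 signal, and CG13876 and CG13895 were named with it in the choice of this split. The medians are therefore a description without a test. CG13876 had a median of 4.06 on these 10 high arrays, against 4.92 on the 64 other high arrays and 3.64 on the 74 low arrays farther from the threshold. CG13895 had medians of 4.99, 5.52 and 4.56 in the same order of arrays, and hng3 had 6.25, 5.45 and 6.64. The 2 low arrays near the threshold had 4.17 and 4.26 for CG13876, above all 74 other low arrays, whose highest value was 3.98. The lead array of line 3 was at the high level, with 5.12 for CG13876 and 5.31 for hng3, and the control array of line 207 was at the low level for CG13876, with 3.63. Of the 10 high arrays near the threshold, 8 are labelled lead and 2 control, where all high arrays comprise 40 lead and 34 control arrays.

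The lists of genes by function held few calls. Over all 11981 genes, with a single probe set each, 67 were higher and 51 were lower, with a median difference of -0.01. Calls were thus rare over all genes too, and the low counts in these lists are no result about any function. Lists for metallothioneins and metal transport (29 measured), cytochrome P450s (80), heat shock (8), antimicrobial and Turandot peptides (18), gut digestive enzymes (34), male accessory gland (18), testis (33), mitochondrial respiratory chain (71), ribosomal proteins (31), proteasome (26), fatty acid oxidation (23), phototransduction (14), neuronal and synaptic genes (32), circadian clock (12), fat body and nutrient response (25) and female yolk and eggshell (16) each had 0 called members in limma. Among 34 glutathione transferase genes, only se was called, an omega class enzyme needed for red eye pigments. It lies 1180 genes from CG13884 on 3L and differed by 0.45 (limma adjusted p = 0.0368), a call lost with line as a fixed block (0.39, limma adjusted p = 0.311) and without the MtnB covariate (limma adjusted p = 0.0965). Among 21 muscle genes, only Act87E was called, a muscle actin on 3R (0.17, limma adjusted p = 0.0483, and 0.199 without the MtnB covariate), and the median of that list was 0.17. The muscle list had a mean log2 signal of 10.56 ± 0.56 on high arrays, from 9.37 to 11.52, and 10.36 ± 0.48 on low arrays, from 9.21 to 11.56 (SD). Its part in the results on other arms was not tested.

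Of the 24 calls on other arms, 20 were higher and 4 were lower on high arrays. They were spread as 3 on 2L, 7 on 2R, 6 on 3R and 8 on X. The smallest adjusted p among them was that of CG15772 on X, named after its values were seen, with 0.26 (limma adjusted p = 0.000341). Its lowest, median and highest signals were 4.98, 5.63 and 6.48 on high arrays, against 4.62, 5.44 and 6.33 on low arrays, so the ranges nearly coincided. The number of calls on other arms was 13 without the 2 arrays highest in yolk and eggshell genes and 7 without the MtnB covariate, where 3L had 100 and 87 calls.

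The 11 genes of a list of other splits into 2 levels, MtnB among them, had 0 calls in limma. Over all 11981 genes 67 were higher and 51 were lower, so 0 calls among 11 genes is unremarkable. Leaving out MtnB, whose side is the covariate, their differences were 0.50 for CG11598, 0.39 for CG10177, 0.49 for Cyp6a17, 0.42 for Atat, whose second probe set was at 0.05 (limma adjusted p = 0.757), and -0.28 for Prx6c. The differences of Map205, CG10527, P5CDh2, Caf1-55 and CG10764 lay between -0.16 and 0.13. Among these genes Atat lies on 3L, 1312 genes from CG13884.

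The difference between the sides was then taken within each food. On the 75 lead arrays, 40 high and 35 low, 27 probe sets were called, or 0.144%, of which 26 are on 3L. On the 75 control arrays, 34 high and 41 low, 65 were called, or 0.346%, of which 53 are on 3L. The foods share no array but hold the same labelled lines, so they are not separate sets of lines. In both foods 20 probe sets were called, which is 74.1% of the lead calls and 30.8% of the control calls. Of the 65 control calls 63 had the same sign on lead arrays, including all 53 on 3L. CG13876 differed by 1.10 on lead and 1.14 on control arrays, CG13895 by 0.86 and 0.90, and hng3 by -0.96 and -1.05.

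A test of whether food changed the difference, as an interaction of side and labelled food, called 0 of 18768 probe sets in limma, or 0%, with 438 at an unadjusted p under 0.05 and a smallest adjusted p of 1.00. The interaction was -0.04 for CG13876 (SE 0.10), -0.04 for CG13895 (SE 0.0813) and 0.09 for hng3 (SE 0.135). The median SE of an interaction was 0.0714, against 0.0351 for the difference between sides, so smaller changes with food could go undetected.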

How the data were processed

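The deposited table holds 18952 probe sets on 150 arrays, 75 lead and 75 control. Its values, normalized by the authors, are taken as log2 signals from their range. The log base, summarisation and normalization are stated in no source used here, and the values were used without change. Leaving out 183 array controls and CG13884 gave 18768 probe sets, of which 13646 have 1 gene symbol and 13542 were placed by a RefSeq gene table (assembly Release 6 plus ISO1 MT), used for names and gene order. High and low arrays were compared in limma 3.58.1 (R 4.3.3) with the MtnB side as covariate and Benjamini-Hochberg adjustment. Named were genes within 10 genes of CG13884, the marker genes, the 12 higher and 12 lower calls of smallest p among probe sets with 1 symbol, up to 4 called members of a list, and genes of other splits. A gene in a list has its probe set of highest mean. Members, lists and tests were chosen with earlier results of these data known. P-values measure the spread between these arrays, whose number limits the precision.

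Labels pair arrays by line. In deviations from the food means, same-line arrays had an average correlation of 0.0670 and arrays of different lines 0.000472. Above 0.1 were 34 of 75 same-line pairs, a larger share than the 34.6% of pairs from different lines. The fit was checked on simulated data. Alternatives covered covariates, a line block, thresholds, scaling, filters, weights, a rank test and subsets of arrays.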

Additional observations from a re-analysis of the deposited data

How the results depend on the processing

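Calls in all, on 3L and on other arms were 142, 104 and 24. They were 299, 165 and 98 with the first 2 principal components as covariates, 73, 50 and 15 with line as a fixed replicate block, 65, 53 and 5 on control arrays, and 27, 26 and 0 on lead arrays. They were 83, 71 and 5 for lines 1 to 100, 13, 12 and 0 for lines above 200, 49, 39 and 3 for arrays low in MtnB, and 42, 36 and 2 for arrays high in MtnB. At adjusted p thresholds of 0.01 and 0.1 they were 92, 79 and 6, and 226, 130 and 75. Subsets hold fewer arrays. On other arms alone the count moved to 7 without the MtnB covariate, 39 with line as a random replicate block, 55 with the CG13884 level as a continuous term, 14 after median centring, 37 with array weights, 11 in a rank test and 44 without the 8 arrays least like the others. Alternatives chosen after seeing the data gave 14 with the threshold in the largest gap, 75 without arrays within 0.9 of the threshold and 13 without the 2 arrays highest in yolk and eggshell genes. The cause was not tested.

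Of 1210 values of named genes under alternatives, 1109 kept direction and side of the threshold, 53 were no longer called, 11 became called and 37 changed sign. All 11 gained calls lay within 10 genes of CG13884: mth with the continuous term, array weights, without the 8 arrays, without arrays within 0.9 of the threshold and at 0.1, klar with weights and without either set of arrays, and mthl10, CG1233 and Ptpmeg with components. Losses among the leading genes came with lines above 200, lead, control or MtnB-split arrays alone, and se and Act87E lost their call under many alternatives, se also with the line block. Every change of sign was in a gene not called. Around CG13884 these were CG13891 (4.62e-05 with the continuous term, 0.0034 on control and 0.015 on MtnB-low arrays), mthl10 (0.037 for lines above 200), CG32344 (0.0063 with components), CG1231 (-0.017 on lead arrays) and Roc1b (0.0023 with the continuous term, 0.0030 by rank, 0.020 for lines above 200, 0.034 on MtnB-low arrays). Cdc5 had 0.027 with components, 0.0014 with the continuous term, 0.0065 and 0.0058 without arrays within 0.25 and 0.9 of the threshold, 0.0046 after quantile normalization, 0.0079 on control arrays, 0.022 for lines above 200, 0.037 on MtnB-high arrays, 0.0021 with the largest gap and 0.0020 without the yolk-high arrays. Among genes of other splits, Map205 had 0.042 with components, 0.26 with the line block, 0.10 with weights, 0.073 on lead arrays, 0.032 for lines 1 to 100 and 0.019 without the 8 arrays. CG10177 had -0.052 and Caf1-55 0.040 on control arrays. Prx6c had 0.14 with the line block, 0.053 by rank and 0.23 for lines 1 to 100. CG10527 had -0.060 with the line block and -0.20 for lines 1 to 100. P5CDh2 had -0.14 on lead arrays and -0.075 for lines above 200. CG10764 had -0.081 on lead arrays and -0.034 for lines 1 to 100.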
